A study of Mus musculus with 3 samples.

Results

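The genes described here encode the subunits of the mitochondrial respiratory chain and of the ATP synthase, together with the complex I assembly factors that share their name. They were chosen by name from the gene table of the study: mt-Nd, mt-Co, mt-Cytb and mt-Atp genes, and genes whose symbols begin with Nduf, Uqcr, Cox4 to Cox8 or Atp5, plus Sdha, Sdhb, Sdhc and Sdhd, with pseudogenes left out. The rule gave 108 of 32227 genes, 13 on the mitochondrial genome and 95 in the nucleus. The rule used names alone. The nuclear genes comprised 38 complex I genes, 8 complex I assembly factors, 4 complex II genes, 8 complex III genes, 20 complex IV genes and 17 ATP synthase (complex V) genes. The mitochondrial genes comprised 7 of complex I, 1 of complex III, 3 of complex IV and 2 of complex V. In nuclei, 94 of the 95 nuclear genes had at least 1 unique molecular identifier (UMI, the tag that counts a captured transcript once). Ndufb11b had 0 UMIs and Cox8c had 1.

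Oxidative phosphorylation passes electrons from NADH through complex I, or from succinate through complex II, to complex III and on to oxygen at complex IV, and the protons pumped on the way drive complex V to make ATP. A set of membrane subunits of complexes I, III, IV and V is transcribed from mitochondrial DNA inside the organelle, whereas all other subunits, including the whole of complex II, are transcribed in the nucleus and translated in the cytosol. Large sensory neurons with fast myelinated axons are known for a high demand for mitochondrial ATP. In a preparation of nuclei, a transcript of the mitochondrial genome comes from outside the nucleus, whereas one of a nuclear gene may come from inside or outside it. Spliced and unspliced transcripts were not told apart here.

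The samples were lumbar dorsal root ganglia (DRG), which hold the cell bodies of sensory neurons with their satellite glial cells (SGCs), Schwann cells, vessels and immune cells. All mice were C57BL/6 and labelled male, and the labels name no engineered allele or treatment. There was 1 library from adult mice of 3 months and there were 2 libraries from aged mice of 21 months. The series text gives another age and the study's methods another sex for aged mice, and the sample labels were followed. The study describes the libraries as biological replicates. The labels do not say how many mice were pooled for a library. For adult against aged, p-values rest on the spread between the 2 aged libraries and on spread shared across genes. For cell classes and neuron subtypes library was a block. Those p-values rest on how far differences between groups varied from library to library. Nuclei were released by homogenizing frozen ganglia and captured by PIP-seq, which partitions them with barcoded beads. The adult library held 167664164 UMIs in total, and the aged replicates 1 and 2 held 95647106 and 69045987.

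Barcodes with more than 1000 genes were taken as nuclei: 11518 adult ones and 5130 and 2611 from aged replicates 1 and 2, with medians of 3269, 4317.5 and 4900 UMIs. Barcodes of 10 to 99 UMIs were taken as free RNA and held 12333356, 11399757 and 14025199 UMIs. Nuclei of different libraries shared at most 1 barcode. Classes were set from marker genes, and each is called "like" a cell type for that reason: neurons, myelinating Schwann cells (MSCs), SGCs with non-myelinating Schwann cells (SGC/NMSC), fibroblasts, endothelial cells, mural cells, myeloid cells, T cells and B cells. Of the markers of each class, 9 or 10 of 10 were highest in their own class in all 3 libraries for the MSC, endothelial, mural, fibroblast, myeloid, T cell and B cell lists, and 9 of 12 for neurons. The SGC list reached 5 of 10 and the NMSC list 7 of 10, and these 2 lists were treated as 1 class. The same markers set the classes, so these counts describe the grouping and are no independent check of identity. Neurons were split into neurofilament-rich (NF), non-peptidergic (NP), peptidergic (PEP), SST, TRPM8 and C-low-threshold mechanoreceptor (cLTMR) subtypes. Malat1, a noncoding RNA held in the nucleus, made up 5.0% of UMIs in adult nuclei and 1.47% and 1.61% in the aged ones. Because of this gap, each comparison was also run separately in the nuclei at or above the median Malat1 share of their own library and class (Malat1-high nuclei) and in those below it (Malat1-low nuclei), a choice made after the data had been seen.

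The promoters of 3 genes on which the results turned are shown here. Cox5a encodes a nuclear subunit of complex IV and was among the nuclear genes that differed most in NF-like and in NP-like neurons. Cox6b1 and Cox6b2 encode alternative forms of another complex IV subunit, of which Cox6b2 differed most between classes. Each line gives the 250 bases before the RefSeq transcription start, 5′ to 3′ on the gene's strand, in GRCm38.p6. Capitals mark the core of the ETS (GABP) motif.
Cox5a: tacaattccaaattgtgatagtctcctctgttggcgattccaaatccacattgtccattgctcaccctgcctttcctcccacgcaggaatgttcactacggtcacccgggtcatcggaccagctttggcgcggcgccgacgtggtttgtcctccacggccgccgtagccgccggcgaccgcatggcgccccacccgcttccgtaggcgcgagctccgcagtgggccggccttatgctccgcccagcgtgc
Cox6b1: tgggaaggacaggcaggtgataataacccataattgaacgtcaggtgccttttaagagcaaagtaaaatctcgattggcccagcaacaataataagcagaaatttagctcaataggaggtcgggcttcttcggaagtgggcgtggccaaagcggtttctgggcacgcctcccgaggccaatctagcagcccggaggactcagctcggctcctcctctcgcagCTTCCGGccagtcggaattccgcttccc
Cox6b2: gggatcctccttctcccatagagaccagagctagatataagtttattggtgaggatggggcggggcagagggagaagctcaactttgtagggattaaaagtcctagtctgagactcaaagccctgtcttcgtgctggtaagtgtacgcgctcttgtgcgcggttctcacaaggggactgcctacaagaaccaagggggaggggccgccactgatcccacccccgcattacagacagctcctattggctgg

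The windows lie at chr9:57520982-57521231 (plus strand) for Cox5a, chr7:30626115-30626364 (minus strand) for Cox6b1 and chr7:4753095-4753344 (minus strand) for Cox6b2. Motif cores of factors known to act on respiratory genes were searched on both strands: NRF1 (GCATGCG), ETS (CCGGAAG), YY1 (AAGATGG) and CREB (TGACGTC). None of the cores contains another, and a window was counted once for a core however often it matched. The ETS core lay at position -28 of Cox6b1, counted from the start, and none of the 4 cores was found in the windows of Cox5a or Cox6b2. Of the 77 nuclear members with a window, 10 (13%) held the NRF1 core, against 4.0% of all 20435 genes with a window. The ETS core was in 14 (18.2%) against 9.39%, the CREB core in 7 (9.09%) against 3.65%, and the YY1 core in 1 (1.30%) against 4.90%. A match here is a match of letters and not a measured binding site.

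Members of both genomes made up a larger share of free RNA than of nuclei in every library. Sets of 3 values are given in the order adult, aged replicate 1, aged replicate 2 throughout. The 13 mitochondrial members took 0.222%, 0.331% and 0.178% of UMIs in nuclei and 0.853%, 0.821% and 0.677% in free RNA. The 95 nuclear members took 0.633%, 0.633% and 0.449% in nuclei and 2.16%, 1.80% and 1.79% in free RNA. Levels below are UMIs per 1000000 UMIs of the group (CPM). Of the 12 mitochondrial members with at least 50 UMIs in each pool, 12 had a lower CPM in nuclei than in free RNA in all 3 libraries, with a median ratio of 0.290. The same held for 83 of 86 nuclear members, with a median ratio of 0.294. Over all genes it held for 39.6% of 12724 genes, with a median of 1.07.

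The nuclear members differed among themselves in this ratio, both by role and by gene length, and the part of each was not tested. All 37 complex I genes tested were lower in nuclei (median ratio 0.310), as were 4 of 4 of complex II (0.589), 8 of 8 of complex III (0.281), 12 of 12 of complex IV (0.266) and 17 of 17 of complex V (0.281). The 8 assembly factors, which act on complex I while it is built and are not part of it, had a median of 0.885, with 5 of 8 lower in all libraries. Ndufaf4 had the highest ratio, 1.31, 1.21 and 1.24 in the 3 libraries. At the other end, Atp5e, a small subunit of the ATP synthase rotor stalk, stood at 0.181, 0.223 and 0.163, the lowest median of the genes tested. Among 86 nuclear members the ratio followed the length of the gene (Spearman's rho = 0.575 across genes, which are not independent replicates). The 29 genes spanning up to 5.60 kb had a median of 0.269, the 28 of 5.73 to 9.49 kb 0.278, and the 29 of 9.58 kb or more 0.424. Among lists of other genes, cytoplasmic ribosomal proteins had 86 of 95 lower in nuclei and a median of 0.300. Glycolysis genes had 16 of 17 (median 0.411), mitochondrial carriers and exchangers 6 of 10 (0.412), and genes for expression of mitochondrial DNA and mitochondrial biogenesis 6 of 30 (1.23).

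**Figure D1:**
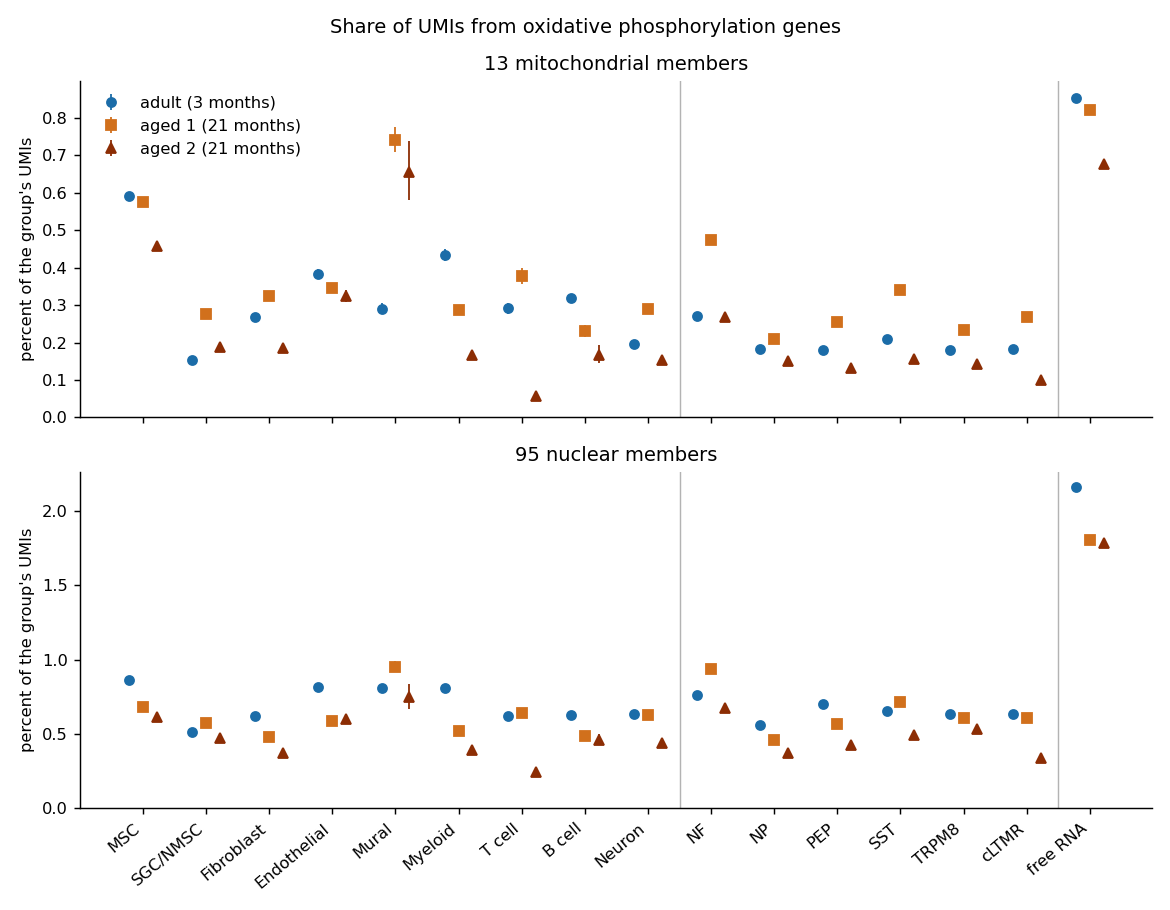
Percent of a group's UMIs from the 13 mitochondrial members (top) and the 95 nuclear members (bottom) in each marker-defined class, neuron subtype and in free RNA (x axis). Each point is 1 library and the bars are exact 95% intervals for counting error. Free RNA lies above every class in the bottom panel, and in the top panel MSC-like nuclei lie between 0.459% and 0.592%.

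Within the classes with most nuclei, the share of both genomes was lower where the Malat1 share was higher. Nuclei of each library and class were ordered by their Malat1 share and cut into 4 groups of equal size. In adult neuron-like nuclei, the mitochondrial share from the lowest to the highest Malat1 group was 0.656%, 0.303%, 0.126% and 0.0887%, and the nuclear share 1.67%, 0.858%, 0.474% and 0.389%. In aged replicate 1 the mitochondrial share was 0.712%, 0.574%, 0.217% and 0.128%, and in aged replicate 2 it was 0.646%, 0.25%, 0.0858% and 0.0553%. The same order was seen in each library for SGC/NMSC-like nuclei (adult 0.244% down to 0.104%) and for MSC-like nuclei (adult 1.17% down to 0.267%). It was seen also after each nucleus had been thinned to 1000 UMIs. In neuron-like nuclei the groups differed in depth as well, with median UMIs of 3489, 5057, 21628 and 21086 in the adult library. Cut by UMIs instead, the adult mitochondrial share ran from 0.614% in the shallowest to 0.145% in the deepest group. In fibroblast-like nuclei the order held in the adult library and aged replicate 2 and not in aged replicate 1. These are descriptions over nuclei of the same library, with no test. The lowest Malat1 groups of neuron-like nuclei stayed below the 0.853%, 0.821% and 0.677% of free RNA, and those of MSC-like nuclei (1.17%, 1.26% and 1.14%) lay above them.

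**Figure D2:**
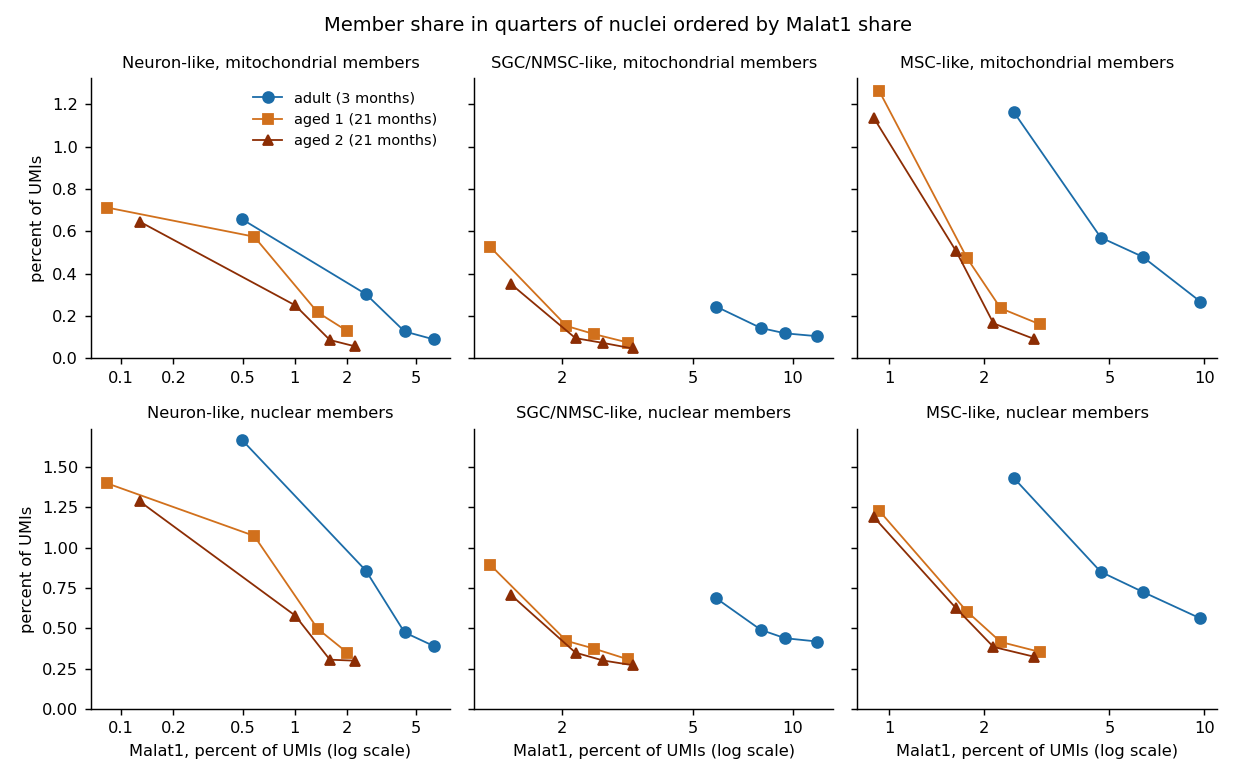
Percent of UMIs from mitochondrial (top) and nuclear members (bottom) against the Malat1 share (x axis, log scale) in 4 equal groups of nuclei per library, for neuron-like, SGC/NMSC-like and MSC-like nuclei. Each line is 1 library. In every line the share is lower at each higher Malat1 group, as from 0.656% to 0.0887% for mitochondrial members in adult neuron-like nuclei.

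Nuclei were also clustered without the members. A cluster of 767 barcodes that carried no class name was led by mt-Nd3 and by the hemoglobin genes Hba-a2 and Hbb-bs. It held 1.65% mitochondrial and 1.89% nuclear member UMIs at a Malat1 share of 1.1%. Classes were set by markers and not by cluster, so some of these barcodes lay within the classes. They were 7.60%, 10.5% and 16.9% of MSC-like nuclei, where they held 2.18%, 1.81% and 1.70% mitochondrial UMIs. Of neuron-like nuclei they were 2.37%, 2.91% and 1.73%. Among clusters of NF-like neurons, 1 had 0.822% mitochondrial, 1.62% nuclear and 0.324% Malat1 UMIs, and the other 2 had 0.142% and 0.143% mitochondrial UMIs at Malat1 shares of 3.67% and 3.49%. In cLTMR-like neurons a cluster with 0.604% mitochondrial UMIs had 0.268% Malat1, and another had 0.134% at 3.26%.

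MSC-like nuclei, of the cells that wrap large axons in myelin, had the highest mitochondrial share among the classes with at least 20 nuclei in each library. It was 0.592% (95% Clopper-Pearson interval 0.582 to 0.602), 0.575% and 0.459%. These intervals, here and below, cover counting error alone. Neuron-like nuclei had 0.197%, 0.291% and 0.154%, and SGC/NMSC-like nuclei 0.154%, 0.278% and 0.189%. Endothelial-like nuclei had 0.384%, 0.347% and 0.324%, below MSC-like nuclei in each library, and the ranges of the remaining classes overlapped each other. By cluster in place of marker class, the order of these classes differed. The endothelial-like cluster held 0.446%, 0.610% and 0.403% mitochondrial UMIs. The larger MSC-like cluster, of 1242 nuclei, held 0.543%, 0.408% and 0.264%, below the endothelial-like one in both aged libraries. The 14 to 164 mural-like nuclei per library spread from 0.290% to 0.741%. For each UMI of a nuclear member, MSC-like nuclei held 0.685, 0.841 and 0.746 mitochondrial UMIs, against 0.313, 0.465 and 0.353 in neuron-like nuclei and 0.395, 0.455 and 0.379 in free RNA.

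Gene by gene, 12 of 12 mitochondrial members tested were higher in MSC-like nuclei than in the average of all other classes, where 18.4% of all 14250 genes tested were higher and 17.4% lower (edgeR quasi-likelihood test with library as a block, Benjamini-Hochberg adjusted p under 0.05). Their log2 fold changes ran from 0.93 ± 0.24 (SE, 3 libraries) for mt-Nd5, a proton-pumping subunit of complex I, to 1.27 ± 0.23 for mt-Atp8, an ATP synthase subunit. mt-Co3, a core subunit of complex IV, measured 1574, 1149 and 923 CPM in MSC-like nuclei and 565, 611 and 337 CPM in all nuclei. Its level in MSC-like nuclei was above that of all nuclei in every library (log2 fold change 1.16 ± 0.19). mt-Atp8 lies over the start of mt-Atp6 and mt-Nd4l over the start of mt-Nd4, so reads in the overlaps may have been split between them.

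Of 87 nuclear members tested, 43 were higher in MSC-like nuclei and 0 lower, with a median log2 fold change of 0.45. By role the higher genes were 18 of 37 of complex I, 1 of 8 assembly factors, 1 of 4 of complex II, 4 of 8 of complex III, 9 of 13 of complex IV and 10 of 17 of complex V. Ndufa13, an accessory subunit of complex I, measured 118, 97.0 and 103 CPM in MSC-like nuclei and 58.1, 59.5 and 40.4 CPM in all nuclei, with no overlap (1.1 ± 0.16, adjusted p = 1.38e-05). Sdhc, a membrane anchor of complex II, measured 93.8, 93.9 and 91.4 CPM against 42.5, 53.0 and 42.5 in all nuclei (1.05 ± 0.12, adjusted p = 8.58e-07). Atp5e followed at 0.95 ± 0.15 (adjusted p = 4.27e-05). Of other genes of energy metabolism, 2 of 17 glycolysis genes were higher and 1 lower, with the lactate dehydrogenase subunit Ldhb at 1.81, and 3 of 10 carriers were higher, led by the uncoupling protein Ucp2 at 1.60. Of 94 ribosomal protein genes, 77 were higher and 1 lower.

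The MSC counts differed with the nuclei used. Fits on Malat1-high or Malat1-low nuclei held 6 classes, since T-cell-like and B-cell-like nuclei then numbered 18 in aged replicate 2. With these 2 classes left out and all other nuclei kept, 12 of 12 mitochondrial and 36 of 88 nuclear members were higher in MSC-like nuclei (background 17.6%). In Malat1-high nuclei 9 of 11 mitochondrial members were higher and 11 of 86 nuclear ones, when 17.3% of all genes were higher, and 3 of 94 ribosomal genes were. In Malat1-low nuclei the counts were 11 of 12 and 23 of 87, where 11.2% of all genes were higher. The MSC share of mitochondrial UMIs was 0.371%, 0.20% and 0.127% in Malat1-high nuclei and 0.844%, 0.886% and 0.775% in Malat1-low nuclei. Endothelial-like Malat1-high nuclei had 0.219%, 0.206% and 0.182%, above the MSC-like ones in both aged libraries. Endothelial-like Malat1-low nuclei had 0.564%, 0.405% and 0.417%, below the MSC-like ones in each library. Without aged replicate 1 the count of higher nuclear members was 12, and without aged replicate 2 it was 20; the mitochondrial count was 10 to 12 whichever library was left out.

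In neuron-like nuclei, 15 of 87 nuclear members were higher and 1 lower than in the other classes, when 28.2% of all genes were higher and 29.1% lower. The higher ones included Ndufaf5 (0.75 ± 0.17), an assembly factor that modifies a complex I subunit, Uqcrfs1 (0.57 ± 0.19), the Rieske iron-sulfur protein of complex III, and Ndufa10 (0.50 ± 0.13) of complex I. Cox6a1 of complex IV stood at 0.48 to 0.58 in the fits with a library left out. The count lies below the background share in both directions. Of the mitochondrial members, mt-Nd3 was lower (-0.85) and the other 11 were not called. Glycolysis differed in number, with 13 of 17 genes higher and 2 lower. Counts for neurons moved with the nuclei used, from 9 in Malat1-high (background 29.0% higher) to 77 in Malat1-low nuclei (background 34.3%), and the count was 13 of 88 in all nuclei of the same 6 classes (background 31.9% higher). In that last fit 5 of 12 mitochondrial members were lower. The share of all genes lower there is not given here, and it was 29.1% in the fit with all classes. The count of higher nuclear members was 2 without aged replicate 1, when Uqcrfs1 was no longer called, and 37 without the adult library.

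Other classes had few members called. SGC/NMSC-like nuclei had 6 nuclear members higher and 1 lower (background 17.7% and 17.8%), led by Cox6b2, Ndufaf7 (0.57 ± 0.16), a methyltransferase for complex I assembly, and Ndufs1 (0.47 ± 0.12), the largest iron-sulfur subunit of complex I. Of the mitochondrial members tested there, mt-Nd3 was lower (-0.68 ± 0.20). Of 94 ribosomal genes, 69 were lower in that class. Fibroblast-like nuclei had 1 higher and 14 lower (background 17.9% and 15.5%), the lowest being Atp5o at -0.63 ± 0.22. Without the T-cell-like and B-cell-like classes in the average, 48 of 88 nuclear members were lower in fibroblast-like nuclei, and 6 of 12 mitochondrial members in SGC/NMSC-like nuclei. The share of all genes lower in that fit is not given here, so these counts cannot be read against a background. Endothelial-like nuclei had 3 higher and 0 lower (background 9.28% and 3.0%), Ndufa9, Ndufa2 and Ndufa7 of complex I, at 0.64, 0.61 and 0.59. Sdhb, the iron-sulfur subunit of complex II, was higher in myeloid-like nuclei at 92.9, 92.2 and 86.4 CPM (0.57 ± 0.13, background 17.6%). T-cell-like nuclei had Ndufv1 and Ndufa7 lower (background 2.53%) and B-cell-like nuclei Ndufa9 (background 1.83%). Calls were lost for Ndufaf7 and mt-Nd3 in SGC/NMSC-like nuclei without the adult library, for Ndufs1 and mt-Nd3 without aged replicate 2, for Atp5o in fibroblast-like nuclei without aged replicate 1, for Sdhb in myeloid-like nuclei without either aged library, and for each of the endothelial, T-cell and B-cell genes in at least 2 of the 3 fits. When the minimum was lowered to 10 nuclei, mural-like nuclei had 5 members higher (background 4.11%): Ndufa1, Ndufb3, Ndufb4, Cox6c and Atp5l, at log2 fold changes of 0.68 to 1.02.

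Several complex IV subunits exist as pairs of paralogs, 1 broadly used and 1 restricted to some tissues. Cox6b2, known from testis, measured 23.9, 14.2 and 32.8 CPM in fibroblast-like nuclei, 14.2, 9.13 and 9.33 in SGC/NMSC-like nuclei and 0.596, 0.420 and 0.162 in neuron-like nuclei. Every neuron value lies below every value of the other 2 classes, and the highest SGC/NMSC value meets the lowest fibroblast value. The log2 fold changes were 2.95 ± 0.33 in fibroblast-like (adjusted p = 4.60e-07), 1.90 ± 0.33 in SGC/NMSC-like (adjusted p = 9.44e-05) and -3.45 ± 0.71 in neuron-like nuclei (adjusted p = 0.000303). These were 2.35, 1.85 and -3.26 without aged replicate 2 and 2.98, 1.64 and -3.75 without the adult library, all past the threshold. T-cell-like nuclei held 1 Cox6b2 UMI, in aged replicate 1, so without it the average over classes could not be estimated: the fit gave 4.13, 2.90 and -2.62, the last not past the threshold. Its broadly used partner Cox6b1 measured 116, 110 and 67.1 CPM in neuron-like nuclei and 81.8, 90.5 and 72.1 in SGC/NMSC-like nuclei, which overlap.

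Cox4i2, the form of complex IV subunit 4 known for a role in oxygen sensing, measured 37.7, 7.65 and 24.2 CPM in mural-like nuclei, from 20, 2 and 1 UMIs. In endothelial-like nuclei it measured 7.90 and 1.31 CPM in the adult library and aged replicate 1, and 0 of 529739 UMIs in aged replicate 2, which allows up to 5.66 CPM. Ndufa4l2, a paralog of the complex IV subunit Ndufa4, measured 37.7 and 26.8 CPM in mural-like nuclei, from 20 and 7 UMIs. In aged replicate 2 it had 0 of 41294 UMIs, which allows up to 72.6 CPM, so a difference was not detectable at this depth. Over all nuclei the counts were 132 UMIs for Cox4i2 and 55 for Ndufa4l2. The muscle forms had few UMIs: Cox6a2 stood at 0.310, 0.107 and 0.0532 CPM in all nuclei, Cox8b had 14 UMIs in total, and Cox7a1 stood at 2.57, 1.74 and 1.20 CPM. Cox7b2 was higher in cLTMR-like than in other neurons, at 2.46, 2.81 and 5.64 CPM (1.32 ± 0.38, adjusted p = 0.0116), from 20, 8 and 18 UMIs. It measured 2.57 CPM in adult SST-like neurons and 2.26, 0.972 and 2.85 CPM in TRPM8-like ones, so the ranges overlap, and the call was lost without either aged library (1.16 and 0.96).

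**Figure D3:**
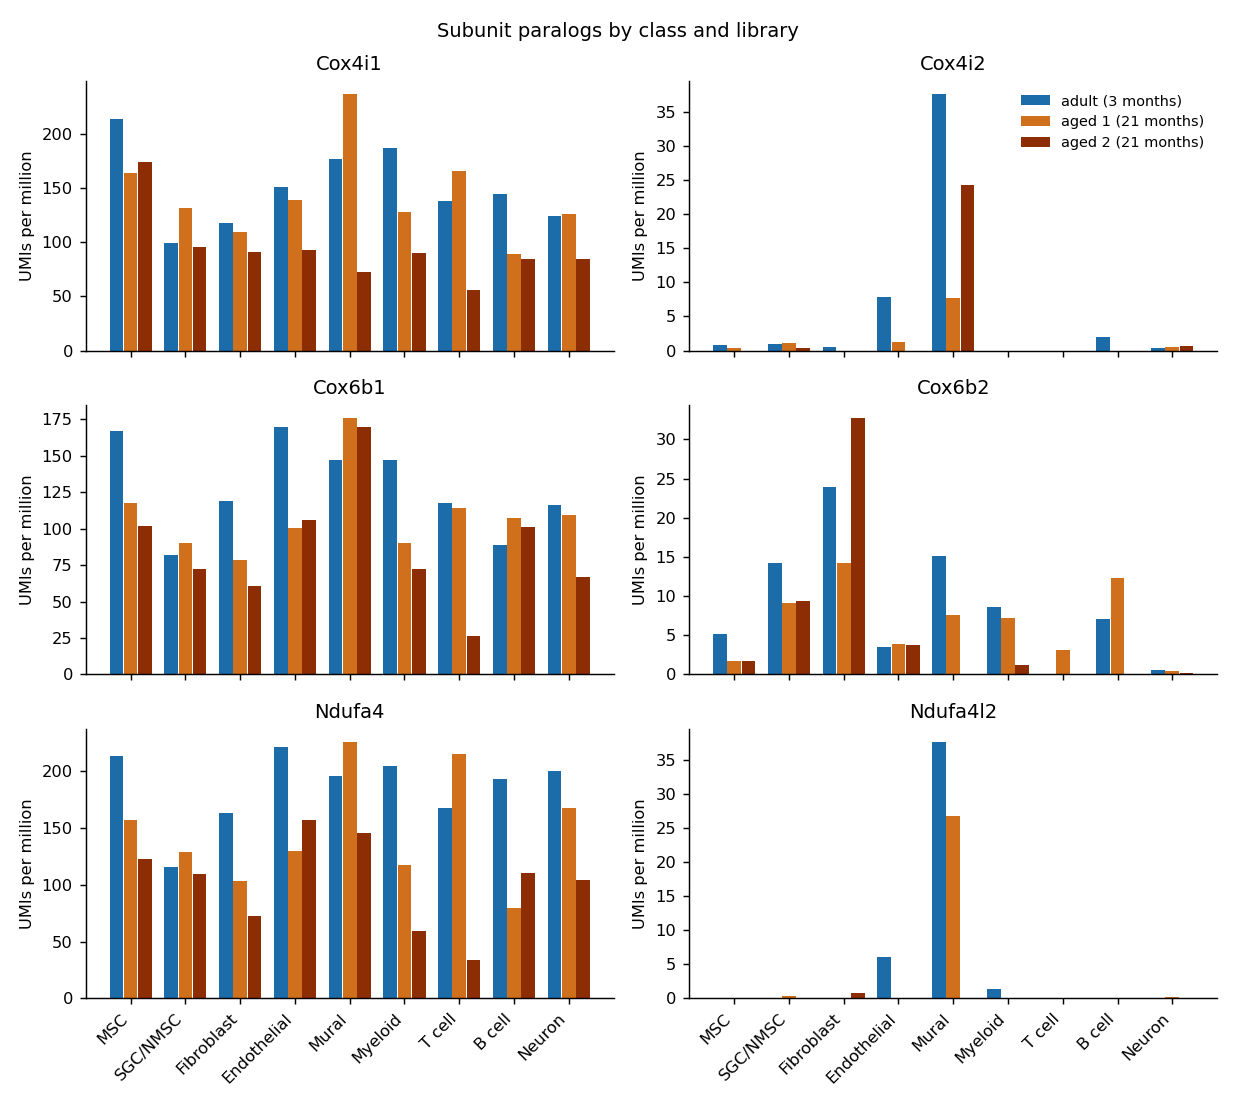
CPM (y axis, linear and starting at 0, scaled per panel) of 3 broadly used subunits (left) and their restricted paralogs (right) by class, 1 bar per library without error bars. Cox4i2 and Ndufa4l2 reach 37.7 in adult mural-like nuclei, and Cox6b2 is lowest in neuron-like nuclei among the classes with a bar in every library.

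Among neuron subtypes, NF-like neurons, which give rise to large myelinated axons, carried the most of both genomes. Their mitochondrial share was 0.271%, 0.474% and 0.268%, against 0.184%, 0.208% and 0.152% in NP-like, 0.181%, 0.255% and 0.133% in PEP-like and 0.184%, 0.269% and 0.10% in cLTMR-like neurons. Within each library NF-like neurons were the highest of the 6 subtypes. The 10 NF markers also set the subtype, and all were highest in NF-like neurons in the 3 libraries. Their summed level was 9067, 10332 and 7163 CPM there and 6038, 10064 and 7506 CPM in free RNA. With the free RNA profile of its library subtracted from each group at 10% of the group's UMIs, 12 mitochondrial and 75 nuclear members were again called higher in NF-like neurons. The same 10% was taken from every subtype, so the subtraction cannot remove a difference in free RNA between subtypes. The share of all genes called in that fit is not given here. The nuclear-member share of NF-like neurons was 0.765%, 0.941% and 0.678%, also the highest in each library, and that of NP-like neurons was 0.561%, 0.460% and 0.374%.

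All 12 mitochondrial members tested were higher in NF-like neurons than in the mean of the other subtypes, with log2 fold changes of 0.68 for mt-Co1 to 0.99 for mt-Atp8 and a median of 0.83. Of 87 nuclear members, 75 were higher and 0 lower, with a median of 0.55, when 25.2% of all 15458 genes tested were higher and 23.1% lower. The higher genes were 32 of 37 of complex I, 4 of 8 assembly factors, 4 of 4 of complex II, 8 of 8 of complex III, 11 of 13 of complex IV and 16 of 17 of complex V. Among those not called, Ndufaf6 stood at -0.19, Cox7b2 at -0.14 and Atp5g2 at -0.07. Cox5a measured 140, 160 and 124 CPM in NF-like and 65.8, 43.3 and 35.8 in NP-like neurons, with no overlap (0.95 ± 0.12 against the mean of the other subtypes, adjusted p = 5.23e-06). Its promoter and that of Cox6b2 are the printed ones without a match to the 4 cores. Ndufaf2, an assembly factor that resembles a complex I subunit, measured 108, 107 and 83.6 CPM against 44.9, 58.4 and 53.9 in NP-like neurons (0.95 ± 0.09, adjusted p = 1.41e-07). Atp5g1, 1 of the genes for the rotor ring of ATP synthase, measured 136, 124 and 92.9 CPM against 83.3, 48.2 and 36.9 (0.94 ± 0.11, adjusted p = 1.49e-06).

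The NF values differed between the Malat1-high and the Malat1-low nuclei. In Malat1-high nuclei 0 of 12 mitochondrial members were called in NF-like neurons by edgeR, 0 had an unadjusted p under 0.05, and their median log2 fold change was 0.00. Of 87 nuclear members 18 were higher and 4 lower, with a median of 0.05, when 25.9% of all genes were higher and 23.6% lower. Those with the largest differences there included the assembly factors Ndufaf2 (1.20) and Ndufaf5 (1.04), and Cox5a remained higher at 0.59. In Malat1-low nuclei 12 of 12 mitochondrial and 78 of 86 nuclear members were higher, with medians of 0.91 and 0.67, when 24.1% of all genes were higher. The mitochondrial share of NF-like neurons was 0.0957%, 0.201% and 0.0715% in Malat1-high nuclei and 0.648%, 0.780% and 0.555% in Malat1-low nuclei, and that of NP-like neurons 0.132%, 0.145% and 0.0836% and 0.290%, 0.504% and 0.314%. Malat1-low nuclei were 58.1%, 69.7% and 67.1% of NF-like and 50%, 42.3% and 46.8% of NP-like neurons. The difference between the 2 sets of nuclei was not tested. The sets also differ in subtypes, since SST had too few Malat1-high and TRPM8 too few Malat1-low nuclei.

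**Figure D4:**
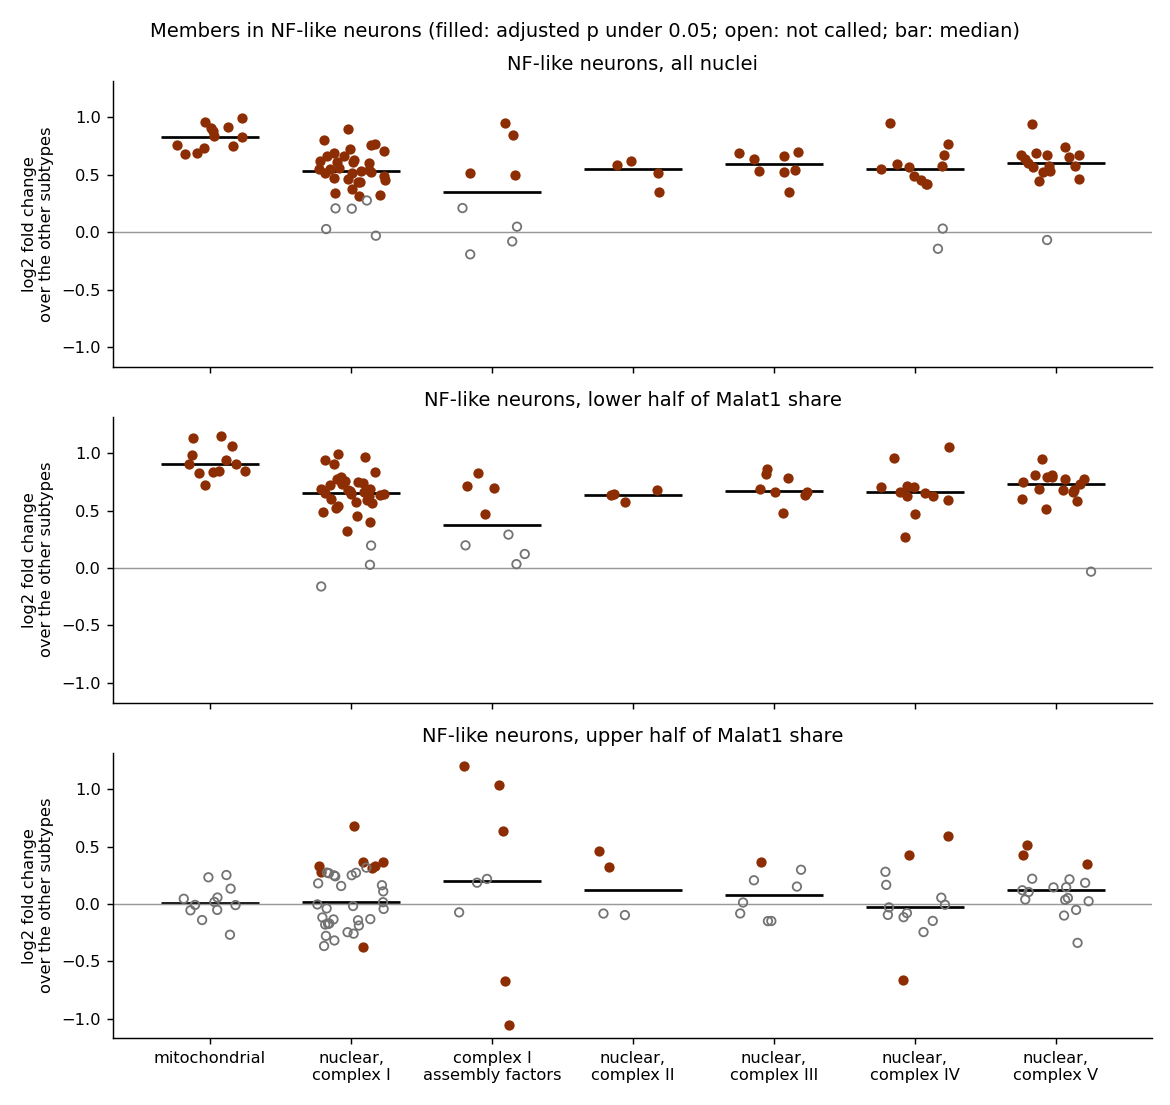
Log2 fold change of each member in NF-like neurons over the mean of the other subtypes (y axis), by genome and complex (x axis), in all nuclei, in Malat1-low nuclei and in Malat1-high nuclei. Filled points passed an adjusted p under 0.05 and bars are medians; mitochondrial members have a median of 0.83 in all nuclei, 0.91 in Malat1-low and 0.00 in Malat1-high nuclei.

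Genes that act upstream of the members were described for NF-like neurons by the same fits, in which 25.2% of all genes were higher and 23.1% lower in all nuclei, and 25.9% and 23.6% in Malat1-high nuclei. Of 32 genes for mitochondrial DNA expression and biogenesis, 13 were higher and 2 lower in all nuclei, and 15 were higher and 1 lower in Malat1-high nuclei. The nuclear receptor Esrrg stood at 3.93 in all and 4.79 in Malat1-high nuclei, its coactivator Ppargc1a (PGC-1alpha) at 1.89 and 1.88, Ppargc1b at 1.27 and 1.47, and Esrra at 0.81 and 0.60. These factors are known to switch on respiratory chain genes. The genes called lower were the transcription factors Yy1 (-0.48 in all and -0.54 in Malat1-high nuclei) and Nrf1 (-0.37 in all nuclei, and not called at -0.0349 in Malat1-high nuclei), whose motif cores were searched above. Glycolysis genes had 11 of 17 higher and 1 lower in all nuclei, with Ldhb at 1.95 and the neuronal enolase Eno2 at 1.29, and 6 higher and 5 lower in Malat1-high nuclei. Of 96 ribosomal protein genes, 7 were higher and 21 lower in all nuclei, and 5 higher and 76 lower in Malat1-high nuclei.

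In the other subtypes 0 to 2 nuclear members and 0 mitochondrial members were higher. NP-like neurons, small unmyelinated nociceptors, had 42 of 87 nuclear members lower and 0 higher, when 18.2% of all genes were lower and 19.1% higher, with a median of -0.29. The largest difference was again in Cox5a (-0.84 ± 0.14, adjusted p = 0.000104), followed by Atp5j and Ndufs7 (both -0.53), and Cox4i1, the common form of complex IV subunit 4, stood at -0.52. Of the mitochondrial members there, 0 of 12 were called by edgeR or by DESeq2, and 0 by edgeR and 1 by DESeq2 had an unadjusted p under 0.05. Since each subtype was set against the mean of the others, the NF and NP differences share samples and are not independent. PEP-like neurons had 11 lower and 0 higher (background 14.6% and 17.0%), with Ndufaf5 at -0.73 ± 0.13, and TRPM8-like neurons had 2 higher (background 11.3%), with Ndufaf5 at 0.72 ± 0.13. Ndufaf5 measured 26.9, 36.0 and 30.4 CPM in PEP-like and 57.9, 75.8 and 81.3 in TRPM8-like neurons, with no overlap. SST-like neurons had 1 higher, Ndufa9 (0.52 ± 0.15, background 9.57%), and cLTMR-like neurons 1 higher and 4 lower (background 18.4% and 16.8%). Single mitochondrial members were lower in PEP-like (mt-Atp6, -0.37), TRPM8-like (mt-Co3, -0.32) and cLTMR-like neurons (mt-Cytb, -0.35). The first 2 calls were lost whichever library was left out and the third without aged replicate 2 (-0.15). The calls of Atp5j and Ndufs7 in NP-like neurons were lost without aged replicate 1, and that of Ndufa9 in SST-like neurons whichever library was left out. The NP count of 42 was 5 without aged replicate 1 and 20 without aged replicate 2.

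Adult and aged libraries were compared within each class. With 1 adult and 2 aged libraries, 1 residual degree of freedom is left, the adult library is assumed to vary like the aged ones, and any other difference between the adult and aged libraries cannot be told apart from age. For a single share, an exact permutation of the 3 labels cannot give a two-sided p below 0.333. The Malat1 share was higher in the adult library in the classes with most nuclei (4.29% against 1.34% and 1.55% in neuron-like, 8.74% against 2.02% and 2.15% in SGC/NMSC-like and 6.01% against 1.91% and 1.90% in MSC-like nuclei), and its part in the results below was not tested.

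Adult and aged nuclei of a class also differed in how they were spread over clusters. The 3 libraries were clustered together without integration, so a cluster can separate nuclei by library as well as by cell type. In neuron-like nuclei, a cluster led by Shox2 and Lgi2 held 4.62% of adult nuclei and 12.4% and 8.67% of aged ones, a cluster led by Htr3a held 6.20%, 13.7% and 8.57%, and a cluster led by Mrgprd held 3.48%, 11.5% and 11.1%. These 3 clusters had Malat1 shares of 0.312% to 0.327%. Their mitochondrial shares were 0.744%, 0.890% and 0.747% in the first, 0.502%, 0.667% and 0.549% in the second and 0.675%, 0.572% and 0.51% in the third, and their part in the neuron values below was not tested. In SGC/NMSC-like nuclei, the cluster led by Adamts18 and Cacng4 held 67.6% of adult nuclei and 5.51% and 4.96% of aged ones, and the cluster led by Lgr5 and Prima1 held 22.3%, 6.23% and 4.96%. The cluster led by Rpe65 and Dcc held 3.18%, 48.0% and 53.9%, that led by Nr1h4 and Rasgef1c 2.37%, 21.2% and 22.2%, and that led by Apoe and Fabp7 3.32%, 12.2% and 9.62%. Over the SGC/NMSC-like nuclei of a cluster, the mitochondrial share was higher in both aged libraries in the Adamts18 cluster (0.124%, 0.153% and 0.131%) and the Apoe cluster (0.420%, 0.680% and 0.461%), lower in both in the Nr1h4 cluster (0.308%, 0.22% and 0.130%), and on either side of the adult value in the Rpe65 cluster (0.0976%, 0.121% and 0.0725%) and the Lgr5 cluster. The spread over clusters thus differed together with the SGC/NMSC values below, and its part in them was not tested. Whether that spread reflects the make-up of cells was not tested either. In myeloid-like nuclei a cluster led by Chil3 and Ngp, genes of granulocytes and monocytes, held 33.7%, 12.5% and 21.1%, and one led by Atp6v0d2 and Ms4a7, which also had the macrophage gene Trem2 among its leading genes, held 24.6%, 68.8% and 64.7%. Both had lower shares in the aged libraries: 0.286%, 0.198% and 0.203% mitochondrial and 0.617%, 0.417% and 0.437% nuclear member UMIs in the Chil3 cluster, and 0.319%, 0.152% and 0.0724% and 0.677%, 0.329% and 0.282% in the Ms4a7 cluster.

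Nuclear members were more often lower than higher in the aged libraries. In MSC-like nuclei 40 of 88 tested were lower and 0 higher (background 7.11% lower and 4.41% higher), in myeloid-like nuclei 33 of 84 and 0 (9.83% and 5.96%), in neuron-like nuclei 21 of 90 and 1 (7.55% and 1.6%), in fibroblast-like nuclei 17 of 87 and 0 (2.4% and 1.96%), in SGC/NMSC-like nuclei 17 of 88 and 6 (10.6% and 12.6%), and in endothelial-like nuclei 5 of 86 and 0 (1.57% and 0.408%). Median log2 fold changes ran from -0.19 in SGC/NMSC-like to -0.97 in myeloid-like nuclei. In T-cell-like and B-cell-like nuclei 0 members were called by edgeR, where 0.187% of all genes were higher and 0.864% lower in the former and 0.0% and 0.0114% in the latter. DESeq2 also called 0 there, and 7 of 89 members in T-cell-like and 9 of 88 in B-cell-like nuclei had an unadjusted p under 0.05 by edgeR. Of 93 nuclear members with UMIs in adult free RNA, 69 were lower and 22 higher in the free RNA of both aged libraries, against 50.9% and 30.1% of all 26007 genes with UMIs there. Each nuclear member called lower in any of these 6 classes was also lower in the free RNA of both aged libraries, as were 71.7% of all genes called lower in myeloid-like, 84.7% in MSC-like, 87.2% in fibroblast-like, 87.7% in neuron-like, 88.3% in SGC/NMSC-like and 96.5% in endothelial-like nuclei. The calls depended on the test, since the DESeq2 Wald test called 1 nuclear member lower in MSC-like, 1 in fibroblast-like, 3 in neuron-like and 2 in SGC/NMSC-like nuclei, and 0 in myeloid-like and endothelial-like nuclei, where 18 and 2 had an unadjusted p under 0.05 by DESeq2. With free RNA subtracted at 10% of UMIs, 0 members of either genome were called in myeloid-like nuclei by edgeR, and the nuclear members called lower became 2 in neuron-like, 3 in SGC/NMSC-like, 1 in fibroblast-like, 37 in MSC-like and 6 in endothelial-like nuclei. With each nucleus thinned to 1000 UMIs they became 1 in neuron-like, 5 in SGC/NMSC-like, 4 in fibroblast-like, 22 in MSC-like, 17 in myeloid-like and 0 in endothelial-like nuclei. The shares of all genes called by DESeq2, after subtraction and after thinning are not given here.

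Ndufs5, an accessory subunit of complex I (chr4:123712710-123718202, minus strand, GRCm38), had the largest fall of all members in every class in which it was called. It measured 46.5 CPM in adult neuron-like nuclei and 9.45 and 8.29 CPM in the aged ones (log2 fold change -2.51 ± 0.22, adjusted p = 1.17e-26). It measured 54.0, 10.2 and 7.84 CPM in MSC-like nuclei (-2.61 ± 0.29, adjusted p = 1.45e-16), and it was lower also in SGC/NMSC-like (-2.25), fibroblast-like (-3.03), endothelial-like (-2.44) and myeloid-like nuclei (-2.28). Leaving out 1 aged library gave -3.50 and -2.14 in endothelial-like and -3.01 and -1.69 in myeloid-like nuclei. In free RNA it measured 172, 18.7 and 23.7 CPM. DESeq2 called it in neuron-like, SGC/NMSC-like, MSC-like and fibroblast-like nuclei. The adult value lay above both aged values in every one of these pools, free RNA included.

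Sdhd, a membrane anchor of complex II (chr9:50596357-50603812, minus strand, GRCm38), moved the other way. It measured 4.67, 18.5 and 14.5 CPM in neuron-like nuclei (1.70 ± 0.27, adjusted p = 4.17e-08) and 4.61, 15.7 and 14.5 CPM in SGC/NMSC-like nuclei (1.5 ± 0.33, adjusted p = 7.85e-05). In free RNA it measured 8.19, 29.7 and 32.6 CPM. DESeq2 called Sdhd in neuron-like nuclei and not in SGC/NMSC-like nuclei. In MSC-like, fibroblast-like, endothelial-like and myeloid-like nuclei the log2 fold changes were 0.78, 1.44, 1.71 and 3.07 and did not pass the test. Ndufaf4 was lower in neuron-like nuclei at 59.0, 37.1 and 31.5 CPM (-0.91 ± 0.22) and in SGC/NMSC-like nuclei at 69.8, 36.0 and 32.2 CPM (-1.24 ± 0.18), and measured 46.0, 30.3 and 26.0 CPM in free RNA.

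Further falls followed by class. In MSC-like nuclei the largest were Atp5g1 (127, 65.0 and 58.3 CPM, -1.13 ± 0.17), Atp5j (154, 87.8 and 68.8 CPM, -1.04 ± 0.16), Atp5mpl (-0.94) and Atp5j2 (-0.92), all of ATP synthase. In neuron-like nuclei they were Ndufb7 (57.6, 39.6 and 26.7 CPM, -0.92 ± 0.22), Uqcr10 of complex III (-0.88) and Atp5g1 (-0.87). In fibroblast-like nuclei they were Atp5mpl (-1.32), Uqcr11 (-1.23), Ndufa2 (-1.22) and Cox7a2 (-1.15), and in endothelial-like nuclei Uqcr10 (-1.23), Atp5g1 (-1.15), Atp5j (-1.05) and Ndufb8 (-1.04). In myeloid-like nuclei they were Uqcr11 (137, 47.9 and 30.1 CPM, -1.86 ± 0.34), Ndufc1 (-1.76), Ndufa5 (-1.69) and Ndufv3 (-1.60). In SGC/NMSC-like nuclei Cox6b2 (-0.84), Uqcr10 (-0.67) and Atp5g1 (-0.60) fell. Uqcrfs1 (0.67), Uqcrc1 (0.58), Cox7a2l (0.57), Atp5b (0.44) and Atp5a1 (0.41) rose there, the last pair being subunits of the catalytic head of ATP synthase. Uqcrfs1 stood at 0.35 without aged replicate 1, 0.89 without aged replicate 2 and -1.43 in Malat1-high nuclei, and Uqcrc1 at -0.0789 in thinned nuclei. DESeq2 called no nuclear member higher in SGC/NMSC-like nuclei. Of 17 glycolysis genes, 9 rose in that class, led by Gapdh (1.30) and Ldha (1.05). Of 94 ribosomal protein genes, 35 fell and 1 rose in MSC-like nuclei.

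Counts of mitochondrial members called with age varied between classes. In SGC/NMSC-like nuclei 8 of 13 were higher (background 12.6%) and 0 lower (10.6%) in the aged libraries, and in neuron-like nuclei 5 of 13 (1.6%) and 0 (7.55%). In MSC-like nuclei 3 of 12 were higher (4.41%) and 4 lower (7.11%), in fibroblast-like nuclei mt-Atp8 was higher (1.96%), and in myeloid-like nuclei 5 of 11 were lower (9.83%) and 0 higher (5.96%). mt-Co1, the catalytic subunit of complex IV, measured 120, 353 and 250 CPM in SGC/NMSC-like nuclei (1.13 ± 0.15, adjusted p = 2.06e-11) and 138, 354 and 218 CPM in neuron-like nuclei (0.92 ± 0.22, adjusted p = 0.000974). mt-Co3 measured 1574, 1149 and 923 CPM in MSC-like nuclei (-0.71 ± 0.10, adjusted p = 2.38e-11) and did not pass in neuron-like (-0.43) or SGC/NMSC-like nuclei (-0.18). With either aged library left out, a value with no test, mt-Co1 stood at 0.87 and 1.35 in SGC/NMSC-like and 0.55 and 1.22 in neuron-like nuclei, and mt-Co3 at -0.88 and -0.55 in MSC-like nuclei (without aged replicate 1, then without aged replicate 2). In Malat1-high nuclei there were 0 higher and 4 lower of 11 in SGC/NMSC-like and 0 higher and 8 lower of 11 in MSC-like nuclei, where 3.99% and 5.06% of all genes were lower. Malat1-high nuclei of both classes still differed in Malat1 share between the adult and the aged libraries. DESeq2 called 0 mitochondrial members in myeloid-like nuclei (5 had an unadjusted p under 0.05), and it called 5 members higher in SGC/NMSC-like nuclei (mt-Co1, mt-Co2, mt-Atp8, mt-Nd4l and mt-Nd5) and 2 in neuron-like nuclei (mt-Co1 and mt-Nd4l).

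Within the mitochondrial UMIs, the make-up also differed between the adult and the aged libraries. mt-Co3 made up 25.4% of mitochondrial-member UMIs in adult nuclei and 18.5% and 19.0% in the aged ones, and mt-Co1 made up 7.21%, 12.1% and 13.7%. In free RNA mt-Co3 made up 28.0%, 24.9% and 26.3% and mt-Co1 7.51%, 10.5% and 11.4%, in the same direction. mt-Nd5 made up 2.18%, 3.76% and 4.05% in nuclei and 2.12%, 1.83% and 1.79% in free RNA, in opposite directions. mt-Atp8 made up 0.853%, 2.77% and 2.67% in nuclei and 1.57%, 2.19% and 1.69% in free RNA. mt-Nd6, the gene encoded on the other strand of mitochondrial DNA, made up 0.0424%, 0.0585% and 0.0613% in nuclei. In free RNA it made up 0.0770%, 0.0406% and 0.0474%, in the opposite direction. The direction in nuclei was the same in neuron-like, SGC/NMSC-like and MSC-like nuclei for mt-Co3 (adult 25.2%, 26.6% and 26.6% against aged values of 17.6% to 20.1%).

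**Figure D5:**
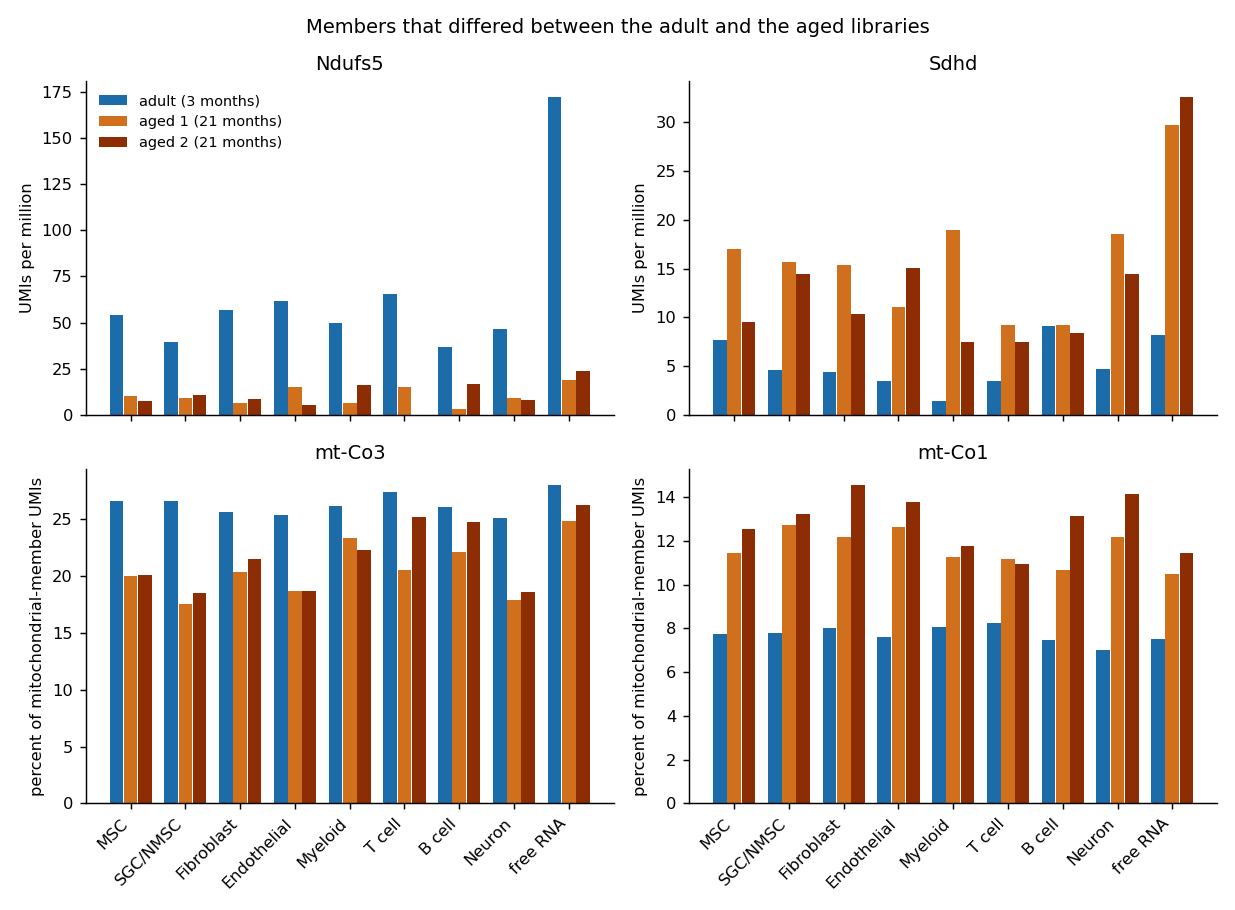
Top, CPM of Ndufs5 and Sdhd; bottom, percent of mitochondrial-member UMIs from mt-Co3 and mt-Co1, by class and in free RNA (x axis), 1 bar per library without error bars, all axes from 0. Ndufs5 is highest in the adult library in every group (172 against 18.7 and 23.7 in free RNA), and mt-Co1 is lowest in it.

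Whether age differences themselves differed between classes was tested as a class-by-age term against neuron-like nuclei. Of 693 tests of members in 7 classes, 0 passed an adjusted p under 0.05 by edgeR, 18 had an unadjusted p under 0.05, and DESeq2 called 1. Over all genes this term called 0.0188% in SGC/NMSC-like, 0.05% in endothelial-like, 0.1% in MSC-like, 0.131% in B-cell-like, 0.188% in T-cell-like, 0.294% in fibroblast-like and 4.43% in myeloid-like nuclei. A class-specific age difference of a member was thus not shown, and on simulated counts this term recovered 14% of genes changed 2-fold and 78% of those changed 4-fold in MSC-like nuclei. The simulation gave all classes and libraries the same starting profile and all genes the same spread. Its rates need not hold for the real sums.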

How the data were processed

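The deposited values are UMI counts per gene and barcode, one matrix per library, which the authors made with Pipseeker, per the study's methods. The genome build in the submitters' processing notes is mm10. Counting is not stated to use strand. Gene positions are those of GENCODE M21 on GRCm38, and promoters those of RefSeq. No other count columns were used.

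Barcodes with more than 1000 genes were kept. A nucleus was given a class when its mean marker score was at least 0.2 and led the next class by 0.2, and neuron subtypes likewise. These limits were set after the data had been seen. Doublets were not removed and no caller was run. UMIs were summed per library and class with at least 20 nuclei in each library. Sums were tested with edgeR 4.0.16 (TMM scaling, filterByExpr, quasi-likelihood test, all genes fitted, Benjamini-Hochberg adjusted p under 0.05) in R 4.3.3. Classes and subtypes were each set against the mean of the others with library as a block. DESeq2 1.42.0 was an alternative, as was subtraction of the library's free RNA profile at 10% of each sum. Standard errors were taken from the F statistic. Clustering used scanpy 1.11.5, with no integration of the libraries.

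The text names all mitochondrial members, the paralog pairs of complex IV with Ndufa4 and Ndufa11, the 5 nuclear members with the largest rise and fall per age comparison and the 3 with the largest change per class or subtype. Members and lists were chosen with earlier results of these data known. Genes named outside that rule, among them those of the other lists, were chosen after their values were seen. On simulated counts, 2-fold changes were recovered for 52% of changed genes (age, neuron-like, 20994 genes), 71% (age, MSC-like, 13881 genes), 71% (MSC-like against other classes, 13478 genes) and 96% (NF-like against other subtypes, 14937 genes).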

Additional observations from a re-analysis of the deposited data

Results flagged for a closer look

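The mitochondrial share of UMIs moved in opposite directions between classes from the adult to both aged libraries. The mean of the aged libraries was 1.51 times the adult share in SGC/NMSC-like nuclei and 2.41 times in mural-like nuclei, with both aged libraries above the adult one. It was 0.873 times in MSC-like, 0.872 times in endothelial-like, 0.524 times in myeloid-like and 0.622 times in B-cell-like nuclei, with both aged libraries below the adult one. In neuron-like, fibroblast-like and T-cell-like nuclei a single aged library exceeded the adult share. The difference between these classes was not tested for the share. Thinned to 1000 UMIs per nucleus, endothelial-like nuclei had 0.406% in the adult and 0.489% and 0.434% in the aged libraries, the opposite direction, and SGC/NMSC-like nuclei had 0.148% against 0.266% and 0.140%. In Malat1-high nuclei the SGC/NMSC share was 0.111% in the adult and 0.0942% and 0.0591% in the aged libraries, also the opposite direction. The Malat1 share of these nuclei was itself 10.7% in the adult and 2.83% and 2.96% in the aged libraries. The mural-like value of aged replicate 2 rests on 14 nuclei. In SGC/NMSC-like nuclei, 67.6% of adult nuclei and 5.51% and 4.96% of aged ones lay in a cluster led by Adamts18, and within clusters the mitochondrial share was higher in both aged libraries in 2 of 5, lower in both in 1 and mixed in 2.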

How the results depend on the processing

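Named members past the threshold gave 185 single results. Under RLE scaling 180 kept their call and 5 lost it, and under DESeq2 108 kept it and 77 lost it. Of 92 in the class and subtype comparisons, 48 lost their call in at least 1 fit without a library. No paired analysis was possible because the labels link no adult library to an aged one. Leaving out an aged library leaves the age and class-by-age fits no residual degrees of freedom, so those are values with no test. T and B cells had too few nuclei with more than 2000 genes or after the Malat1 split, SST too few Malat1-high and TRPM8 too few Malat1-low nuclei. Depth limits mural paralogs most. Choices added after seeing the data were the Malat1 split, the cluster led by mt- genes left out, the 10-nuclei minimum, the T and B cell classes left out and the adult library left out. The cause of a changed value was not tested. Where no background is stated, a count under another setting stands without the share of all genes called there. Such a count shows a change of number alone.

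Nuclear members lower with age numbered 40 in MSC-like nuclei and became 1 with DESeq2, 10 with more than 2000 genes, 22 with thinned nuclei and 19 in Malat1-low nuclei. In neuron-like nuclei 21 became 3 with DESeq2, 2 with free RNA subtracted, 1 with thinned nuclei, 9 in Malat1-high and 1 in Malat1-low nuclei. In SGC/NMSC-like nuclei 17 became 2 with no filter, 2 with DESeq2, 3 with free RNA subtracted, 30 with more than 2000 genes, 5 with thinned nuclei, 35 with Leiden clusters, 31 in Malat1-high and 5 in Malat1-low nuclei. Mitochondrial members higher with age in SGC/NMSC-like nuclei (8) became 5 with no filter, DESeq2, more than 2000 genes, thinned nuclei or Leiden clusters, and 0 in Malat1-high nuclei. In neuron-like nuclei 5 became 2 with DESeq2, 1 in Malat1-high and 2 in Malat1-low nuclei.

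Nuclear members higher in MSC-like nuclei (43) became 25 with more than 2000 genes, 27 thinned, 9 with Leiden clusters, 11 in Malat1-high and 23 in Malat1-low nuclei, and ranged from 12 to 42 when a library was left out. Those higher in neuron-like nuclei (15) became 8 with more than 2000 genes, 69 thinned, 31 with a stricter gate, 9 and 77 in Malat1-high and Malat1-low nuclei and 6 at a minimum of 10 nuclei, and ranged from 2 to 37 when a library was left out. In NF-like neurons the 12 mitochondrial members became 0 in Malat1-high nuclei, and the 75 nuclear members 48 with Leiden clusters and 18 in Malat1-high nuclei. In NP-like neurons 42 lower became 25 with no filter, 13 thinned, 5 with Leiden clusters, 24 in Malat1-high and 26 in Malat1-low nuclei, and ranged from 5 to 42 when a library was left out. The 0 members called for the class-by-age term became 3 with no filter, 1 with DESeq2, 1 with free RNA subtracted, 4 with more than 2000 genes, 3 thinned, 2 with Leiden clusters, 2 with the stricter gate, 1 without the mt- cluster and 5 in Malat1-high nuclei. The mean MSC mitochondrial share (0.542%) became 0.631% thinned, 0.392% with Leiden clusters, 0.444% without the mt- cluster, 0.233% in Malat1-high and 0.835% in Malat1-low nuclei, and the NF share (0.338%) 0.603%, 0.123% and 0.661% (thinned, Malat1-high, Malat1-low).

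Directions reversed as follows. The age log2 fold change of mt-Co1 in MSC-like nuclei became -0.0878 with Leiden clusters and -0.59 in Malat1-high nuclei. In SGC/NMSC-like nuclei, Malat1-high nuclei gave -1.43 for Uqcrfs1, -0.37 for mt-Nd2, -0.36 for mt-Co2, -0.49 for mt-Nd4 and -0.55 for mt-Cytb, thinned nuclei -0.0789 for Uqcrc1, and subtraction of free RNA 0.00541 for Cox6c and 0.0251 for Cox7a2. In NF-like neurons, Malat1-high nuclei gave -0.15 for Cox5b, -0.0793 for Cox6c, -0.0434 for Ndufa11, -0.24 for Cox8a, -0.10 for Ndufa4, -0.0298 for Cox6b1, -0.12 for Cox7a2, -0.0101 for mt-Nd2, -0.0555 for mt-Co1, -0.14 for mt-Co3, -0.00835 for mt-Nd4l, -0.0519 for mt-Nd4 and -0.27 for mt-Nd5. Cox4i1 in PEP-like neurons became 0.0246 with thinned and 0.0220 in Malat1-high nuclei, and mt-Cytb in cLTMR-like neurons 0.0710 in Malat1-low nuclei.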

Other observations

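Complex II is the complex with no mitochondrial gene. The ratio of CPM in nuclei to free RNA (adult, then aged replicates 1 and 2) was 0.709, 0.592 and 0.521 for Sdha, which holds the flavin, 0.480, 0.45 and 0.356 for Sdhb, 0.625, 0.617 and 0.509 for Sdhc, and 0.586, 0.598 and 0.424 for Sdhd. The promoter window of Sdhd held the ETS core at position -46, and that of Ndufs5 held none of the 4 cores.

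mt-Nd4l was higher in the aged SGC/NMSC-like nuclei, at 1.84 CPM in the adult and 18.6 and 13.8 CPM in the aged libraries (log2 fold change 2.94 ± 0.39, edgeR adjusted p = 2.13e-12). mt-Atp8 differed there by 1.96 ± 0.21 (edgeR adjusted p = 4.49e-19). Neither was particular to that class: edgeR called mt-Nd4l higher in 3 of 5 classes tested and mt-Atp8 in 4 of 8. In free RNA mt-Nd4l measured 15.2, 30.7 and 29.7 CPM and mt-Atp8 134, 179 and 114 CPM. Both genes overlap a neighbour, so their UMIs may be split between the pair. mt-Nd1 fell in myeloid-like nuclei from 427 CPM to 226 and 130 CPM (-1.33 ± 0.30, edgeR adjusted p = 0.0087), a call that DESeq2 did not give.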
